A study of Mus musculus with 8 samples.

Results

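The genes described here are 10 genes of the Notch pathway: the receptors Notch1, Notch2, Notch3 and Notch4, the ligands Dll1, Dll4, Jag1 and Jag2, and the target genes Hes1 and Hey1. They were taken by gene symbol from a table of 55536 genes, and all 10 were found and passed the filter on low counts, which left 18266 genes for testing. RNA was measured in MIN6 cells, a wild-type insulin-producing line from a mouse pancreatic β-cell tumour, 48 h after plasmids were delivered with the lipid reagent Lipofectamine 3000. The control plasmid was pcDNA 3 without an insert. The other cells were given pGloMyc-Klf4, which expresses the zinc-finger transcription factor Klf4, so that the plasmid backbone and Klf4 changed together. Each group had 4 replicates, with replicates 1 and 2 in batch 1 and replicates 3 and 4 in batch 2. The share of cells that took up the plasmid was not analysed here, and in bulk RNA a change in a fraction of the cells cannot be told apart from a smaller change in all of them, nor fewer cells of a type from less RNA per cell.

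Notch signalling passes between touching cells. A ligand of the Delta or Jagged family on the surface of a cell binds a Notch receptor on its neighbour, the receptor is cut by a metalloprotease and then by γ-secretase, and the freed intracellular part enters the nucleus, where it joins the DNA-binding protein Rbpj and a Mastermind protein to switch on genes such as Hes1 and Hey1. The products of these genes are transcriptional repressors. In the developing pancreas Notch activity holds progenitor cells back from endocrine differentiation, through Hes1 and its repression of the endocrine factor Neurog3.

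Libraries held 45417853 to 52731176 counts, of which 17747 to 22685 fell in the 10 Notch genes. Klf4 itself was at 36.1 to 42.8 CPM (counts relative to the library total, scaled between libraries with edgeR's TMM factors) without and at 4532 to 5853 CPM with the Klf4 plasmid, so each library matched its label. All 9 β-cell markers examined, Ins1, Ins2 and Pdx1 among them, were detected. Their summed level was 25306 to 32061 CPM without and 23628 to 32318 CPM with the Klf4 plasmid. At the threshold given below 5 of them were lower, by small amounts (log2 fold change -0.07 for Iapp to -0.22 for Slc30a8). Over all tested genes 15.5% were lower. Iapp lost the call after correction for the GC content and length of exons, where its log2 fold change was 0.0046. It also lost the call with scaling factors from abundant genes alone (edgeR adjusted p = 0.229). With each batch fitted alone, Iapp was called in neither, and Pdx1, Mafa and G6pc2 were called in batch 2 and not in batch 1. Of the 9 markers, the effect differed between batches for Mafa alone (edgeR interaction test, adjusted p = 0.00817).

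Of the 10 Notch genes, 7 were higher in Klf4-transfected cells and none was lower at an adjusted p under 0.05 (edgeR's quasi-likelihood test with a term for batch, Benjamini-Hochberg adjustment over all genes tested). Across all tested genes 36.6% passed this threshold, 21.1% as higher and 15.5% as lower. A rise of at least 2-fold was seen for 4 of the 10, Jag1, Notch4, Notch3 and Dll4, against 8.50% of all tested genes. The median log2 fold change was 0.65 over the 10 genes and -0.01 over all tested genes. These 4 were, with Notch2, the 5 genes of lowest level per exonic length in control cells.

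The stretches of DNA around the transcription starts of 4 of these genes are shown because they set the largest increases (Jag1 and Notch4) and the smaller increase of Dll4 beside Notch1, which was not called. RefSeq supplied the sequences. Each runs from 250 bases before to 50 bases after an annotated start on GRCm38.p6, 5′ to 3′ on the strand of the gene, with matches to GGGNGTGG, a form of the Klf4 recognition motif, in capitals on either strand.
Jag1 (chr2:137116471-137116770, minus strand): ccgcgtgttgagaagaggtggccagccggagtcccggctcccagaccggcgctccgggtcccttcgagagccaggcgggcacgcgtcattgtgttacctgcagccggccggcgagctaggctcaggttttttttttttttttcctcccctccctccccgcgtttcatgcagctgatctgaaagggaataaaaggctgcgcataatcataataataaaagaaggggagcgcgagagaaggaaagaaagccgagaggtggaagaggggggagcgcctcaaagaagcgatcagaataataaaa
Notch4 (chr17:34564045-34564344, plus strand): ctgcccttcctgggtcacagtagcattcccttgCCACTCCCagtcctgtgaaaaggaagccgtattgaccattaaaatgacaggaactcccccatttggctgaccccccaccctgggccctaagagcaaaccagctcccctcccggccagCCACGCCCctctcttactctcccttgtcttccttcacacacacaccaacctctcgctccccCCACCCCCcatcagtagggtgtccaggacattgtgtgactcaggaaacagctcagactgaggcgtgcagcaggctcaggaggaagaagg
Dll4 (chr2:119325534-119325833, plus strand): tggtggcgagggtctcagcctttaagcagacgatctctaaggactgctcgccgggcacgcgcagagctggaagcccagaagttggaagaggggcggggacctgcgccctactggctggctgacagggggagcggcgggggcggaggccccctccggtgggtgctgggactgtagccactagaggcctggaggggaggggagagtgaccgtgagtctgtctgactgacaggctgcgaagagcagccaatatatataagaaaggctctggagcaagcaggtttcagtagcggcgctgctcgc
Notch1 (chr2:26503773-26504072, minus strand): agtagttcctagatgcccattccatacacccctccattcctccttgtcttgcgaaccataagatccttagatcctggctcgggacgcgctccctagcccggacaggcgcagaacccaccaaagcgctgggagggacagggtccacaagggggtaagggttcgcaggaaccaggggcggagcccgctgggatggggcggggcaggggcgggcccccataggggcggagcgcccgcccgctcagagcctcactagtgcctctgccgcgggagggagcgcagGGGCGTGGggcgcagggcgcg

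The table of promoters held 8 of the 10 genes and lacked Hes1 and Hey1. The Notch4 window had 3 matches, all on the minus strand, beginning at -217, -100 and -39 from the start site. The Notch1 window had 1 match, at 30 bases after the start, and none was found in the windows of Jag1, Jag2, Dll1, Dll4, Notch2 or Notch3. Of 32841 promoter windows of the same length, 17.6% held at least 1 match and 0.6% held at least 3. The letters TGGGAA, the core of the Rbpj motif, were in none of the 9 windows of these 8 genes, on either strand, and in 25.6% of all windows. These are matches of letters and carry no measurement of binding.

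Among the receptors, Notch1 made up most of the signal in control cells and 3 less abundant receptors rose. Notch1 (ENSMUSG00000026923, chromosome 2, 26457903 to 26516663, minus strand; GRCm38 as for all coordinates) is the receptor of broadest use in development. It was at 133, 142, 134 and 127 CPM in control replicates 1 to 4 and at 123, 129, 129 and 130.2 CPM in Klf4-transfected replicates 1 to 4. The groups overlapped, and the log2 fold change of -0.07 (SE 0.03, 95% interval -0.14 to 0.0012) did not pass the threshold (edgeR adjusted p = 0.12). Fitted alone, batch 1 gave -0.13, which was called lower (edgeR adjusted p = 0.0232), and batch 2 gave 0.00053. Notch1 was also called lower without control replicate 4 (log2 fold change -0.10, edgeR adjusted p = 0.0269) and after correction for the GC content and length of exons (-0.12, edgeR adjusted p = 0.00159).

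Notch2 (ENSMUSG00000027878, chromosome 3, 98013527 to 98150361, plus strand), the receptor most like Notch1 in its structure, rose. It was at 5.54, 5.51, 5.54 and 4.87 CPM in control libraries and at 9.1, 9.65, 10.7 and 9.75 CPM in Klf4-transfected libraries. The groups were apart, with a fold change of 1.83 (95% interval 1.62 to 2.05; log2 0.87, SE 0.08, edgeR adjusted p = 9.72e-09). Notch4 (ENSMUSG00000015468, chromosome 17, 34564268 to 34588503, plus strand), a receptor best known from blood vessel endothelium, was at 1.49, 1.68, 1.64 and 1.53 CPM in control and at 8.01, 9.17, 9.41 and 11.3 CPM in Klf4-transfected libraries. Every Klf4-transfected library was well above every control library. The fold change was 5.94 (95% interval 5.07 to 6.96; log2 2.57, SE 0.11, edgeR adjusted p = 9.3e-15).

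Notch3 (ENSMUSG00000038146, chromosome 17, 32120820 to 32166852, minus strand), known from the smooth muscle and pericytes of vessels, was close to the limit of detection. It had 12, 16, 11 and 19 counts in control and 45, 30, 44 and 55 counts in Klf4-transfected libraries. In scaled terms the means were 0.3 ± 0.0764 and 0.853 ± 0.156 CPM (SD, n = 4), with no overlap between the groups. The fold change was 2.83 with a wide 95% interval of 1.88 to 4.26 (log2 1.5, SE 0.28, edgeR adjusted p = 0.000201), and under the stricter filter on low values (1 CPM) Notch3 was not tested.

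Among the ligands, Jag1 gave the largest change of the 10 genes. Jag1 (ENSMUSG00000027276, chromosome 2, 137081456 to 137116644, minus strand), a Jagged ligand that is needed for bile duct formation, had 39, 23, 48 and 55 counts in control and 436, 379, 479 and 498 counts in Klf4-transfected libraries. Scaled, these were 0.828, 0.472, 0.974 and 1.14 CPM against 8.44, 8.37, 9.11 and 9.44 CPM. The lowest Klf4-transfected library was far above the highest control library. The fold change was 10.4 (95% interval 8.56 to 12.6; log2 3.38, SE 0.13, edgeR adjusted p = 3e-15).

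Dll4 (ENSMUSG00000027314, chromosome 2, 119325784 to 119335962, plus strand), the Delta ligand of endothelial tip cells and arteries, was at 4.5, 3.82, 2.56 and 3.79 CPM in control and at 9.31, 8.15, 7.57 and 8.67 CPM in Klf4-transfected libraries. The groups did not overlap, and the lowest value of each group was that of replicate 3. The fold change was 2.31 (95% interval 1.97 to 2.71; log2 1.21, SE 0.11, edgeR adjusted p = 7.36e-09).

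Jag2 (ENSMUSG00000002799, chromosome 12, 112907819 to 112929776, minus strand), the other Jagged ligand and the most abundant of the 10 genes, was at 172, 163, 179.5 and 176 CPM in control and at 187, 185, 185 and 191 CPM in Klf4-transfected libraries. All Klf4-transfected libraries were above all control libraries, by a small margin. The fold change of 1.09 (95% interval 1.04 to 1.13; log2 0.12, SE 0.03) passed the threshold (edgeR adjusted p = 0.00235), but the sign turned, to a log2 fold change of -0.01, after the same correction (edgeR adjusted p = 0.728). Dll1 (ENSMUSG00000014773, chromosome 17, 15367354 to 15376872, minus strand), the Delta ligand that restrains endocrine differentiation in the early pancreas, was at 34.7, 33.3, 24.0 and 23.4 CPM in control and at 35.0, 34.4, 25.6 and 27.5 CPM in Klf4-transfected libraries. Its values fell into pairs by batch and the groups overlapped. The log2 fold change of 0.09 (SE 0.05, 95% interval -0.00056 to 0.19) was not called (edgeR adjusted p = 0.115), and with scaling factors from abundant genes alone it was 0.13 and was called higher (edgeR adjusted p = 0.0398).

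**Figure D1:**
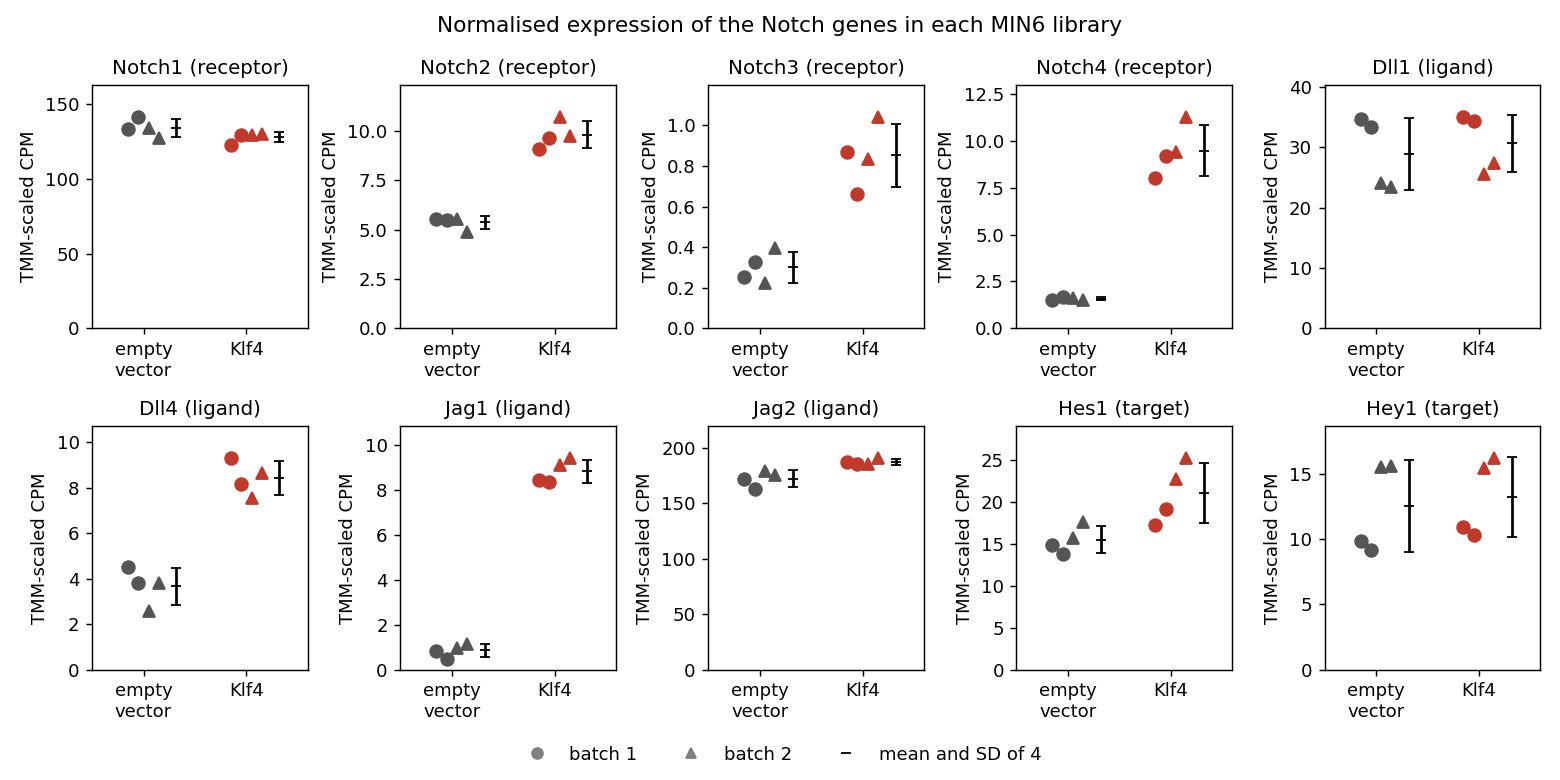
TMM-scaled CPM of each of the 10 genes (vertical axis, from 0, its own scale in each panel) in the 4 empty-vector and 4 Klf4-transfected libraries, with circles for batch 1, triangles for batch 2 and a bar for the mean and SD. Jag1, Notch4, Notch3, Dll4 and Notch2 are well apart between the groups, while Dll1 and Hey1 are set apart by batch.

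Of the target genes, Hes1 rose and Hey1 was not called. Hes1 (ENSMUSG00000022528, chromosome 16, 30064384 to 30067796, plus strand), a basic helix-loop-helix repressor, was at 14.8, 13.8, 15.7 and 17.6 CPM in control and at 17.2, 19.1, 22.7 and 25.2 CPM in Klf4-transfected libraries. The groups overlapped across batches, since Klf4-transfected replicate 1 was below control replicate 4, but not within either batch. The fold change was 1.36 (95% interval 1.24 to 1.48; log2 0.44, SE 0.06, edgeR adjusted p = 4.73e-06). Hey1 (ENSMUSG00000040289, chromosome 3, 8663359 to 8667256, minus strand), a repressor of the related Hairy/E(spl) family with a YRPW motif, was at 9.81, 9.18, 15.5 and 15.6 CPM in control and at 10.95, 10.3, 15.5 and 16.2 CPM in Klf4-transfected libraries. The groups overlapped, with a log2 fold change of 0.09 (SE 0.06, 95% interval -0.04 to 0.22, edgeR adjusted p = 0.293). The upper end of this interval is 1.16-fold.

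In all, 6 of the 10 genes had every Klf4-transfected library above every control library, against 17.2% of all tested genes. None had every Klf4-transfected library below every control library, against 8.93%. Hes1 was the called gene whose groups overlapped.

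The effect was also compared between the batches. When batches 1 and 2 were fitted alone, the respective log2 fold changes were 3.69 and 3.14 for Jag1, 2.43 and 2.71 for Notch4, 1.38 and 1.61 for Notch3, and 1.07 and 1.37 for Dll4. They were 0.76 and 0.99 for Notch2, and 0.34 and 0.54 for Hes1. All 6 genes were called in each batch, where 24.4% (batch 1) and 29.8% (batch 2) of all tested genes were called. Of the 10 genes, 9 had the same sign in both batches, all but Notch1, against 74.5% of all tested genes. Jag2 was called in batch 1 (0.15, edgeR adjusted p = 0.00387) and not in batch 2 (0.09, edgeR adjusted p = 0.0735). The interaction of plasmid and batch was called for none of the 10 genes in edgeR or in DESeq2 and reached an unadjusted p under 0.05 for none in edgeR. The lowest unadjusted edgeR p was 0.0564, for Jag1, and 0.766% of all tested genes were called.

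**Figure D2:**
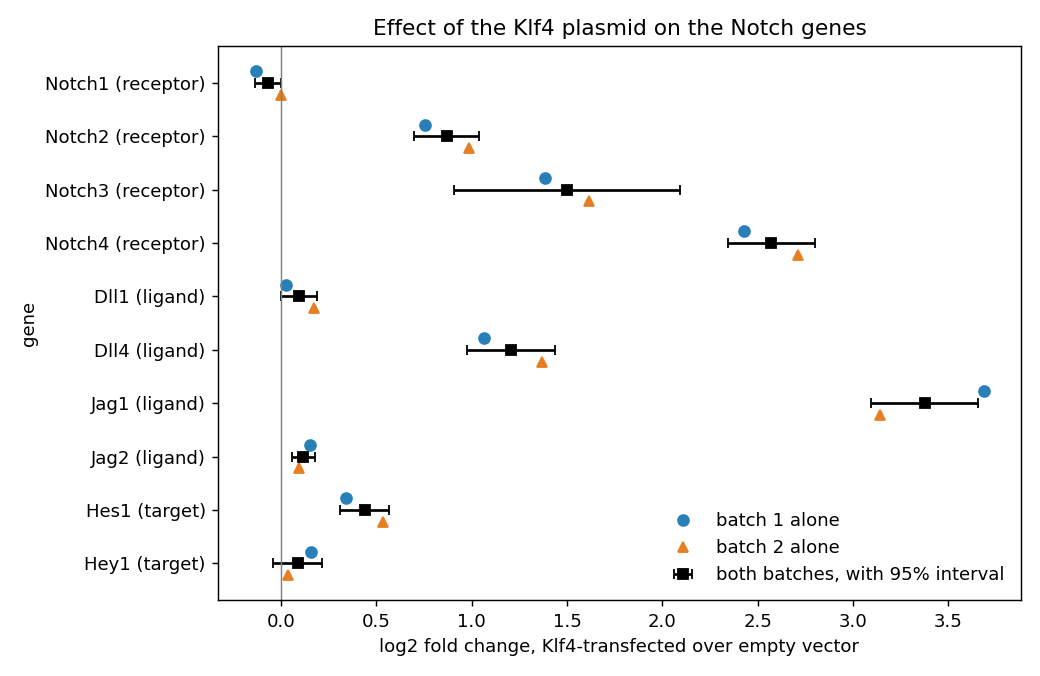
Log2 fold change of Klf4-transfected over empty-vector libraries (horizontal axis) for each gene, as squares with 95% intervals for both batches together and as circles and triangles for each batch alone. Jag1 is highest at 3.38, and the intervals of Notch1, Dll1 and Hey1 include 0.

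The batches themselves differed in level for 3 of the 10 genes, and 25.1% of all tested genes did so (edgeR, batch term of the same fit). Hey1 was higher in batch 2 by 0.64 on the log2 scale (edgeR adjusted p = 9.45e-08) and Hes1 by 0.32 (edgeR adjusted p = 0.000562). Dll1 was lower in batch 2, with a log2 difference of -0.45 (edgeR adjusted p = 1.96e-07). For Hey1 and Dll1 the difference between batches was thus larger than that between plasmids.

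Levels of different genes were compared per kilobase of exon (TMM-scaled CPM divided by the summed exonic length of all annotated transcripts). In control cells Jag2 was highest at 24.7 ± 1.04 and Notch1 next at 9.43 ± 0.411 CPM per kb (SD, n = 4). Hes1 (7.6 ± 0.806) and Dll1 (6.84 ± 1.42) followed with overlapping ranges, and Hey1 (3.84 ± 1.07) came after them. Dll4 (0.952 ± 0.211) and Notch2 (0.497 ± 0.0307) were separate from their neighbours, Notch4 (0.197 ± 0.0115) and Jag1 (0.146 ± 0.0487) overlapped, and Notch3 was lowest at 0.0371 ± 0.00945 CPM per kb.

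In Klf4-transfected cells Jag2 was still highest, at 26.9 ± 0.397 CPM per kb. Hes1 (10.3 ± 1.76) and Notch1 (8.99 ± 0.234) overlapped. Jag1 passed both Notch2 and Notch4 in this order, at 1.52 ± 0.0895 against 0.909 ± 0.0628 for Notch2 and 1.17 ± 0.168 CPM per kb for Notch4, and was below Dll4 at 2.19 ± 0.192. As a difference in level, the increase was 2.75 CPM per kb for Hes1, 1.37 for Jag1, 1.23 for Dll4 and 0.978 for Notch4, so that the order by difference was not the order by fold. The difference for Jag2 was 2.11 CPM per kb, but the sign of its log2 fold change turned (-0.0145) after the correction for GC content and length.

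Shares within a role were computed from these levels. Notch1 held 92.8% ± 0.097 of the summed receptor level per length in control and 80.5% ± 1.17 in Klf4-transfected cells, while Notch4 went from 1.94% ± 0.0784 to 10.5% ± 1.14 and Notch2 from 4.9% ± 0.202 to 8.13% ± 0.424 (SD, n = 4). Among the 4 ligands Jag2 and Dll1 together held most of the signal in both groups: Jag2 had 75.8% ± 4.18 and then 71.1% ± 2.28, and Dll1 had 20.9% ± 3.91 and then 19.1% ± 2.48. Jag1 went from 0.449% ± 0.154 to 4.02% ± 0.331 and Dll4 from 2.91% ± 0.591 to 5.78% ± 0.357 (SD, n = 4).

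**Figure D3:**
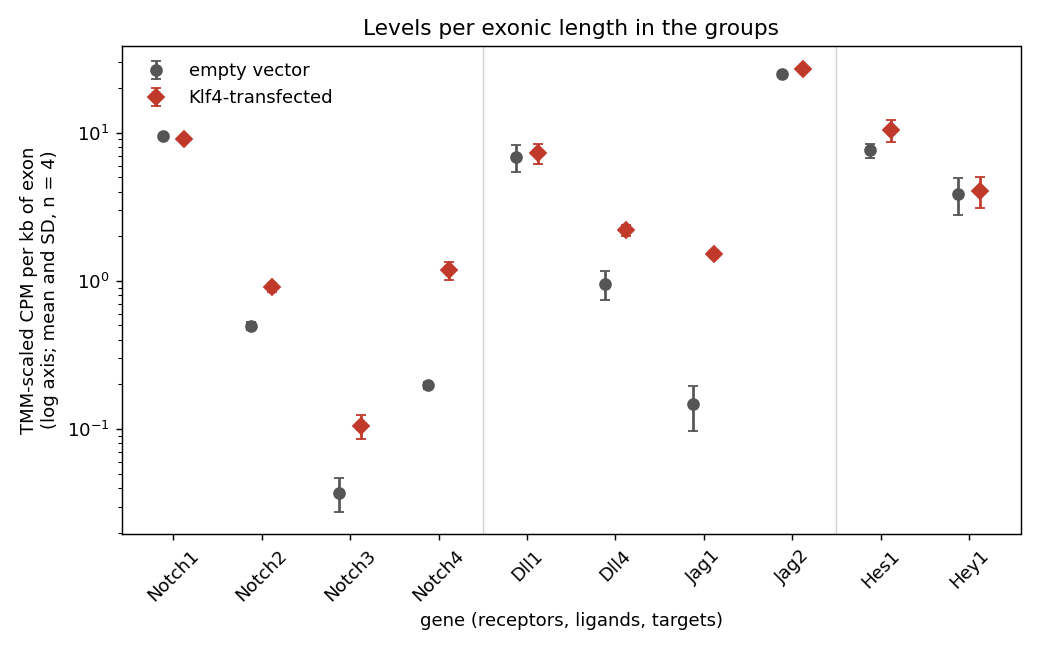
Level per exonic length (TMM-scaled CPM per kb, log axis; mean and SD of 4 libraries) of each gene in empty-vector (circles) and Klf4-transfected cells (diamonds). Jag2 is highest in both groups, and the gap between groups is widest for Jag1, from 0.146 to 1.52.

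Reads from other genes could enter some of these counts. The strand setting of the counting, which bears on genes that overlap on opposite strands, is not given in the sources used here. Annotated exons of another gene covered 20.5% of the exonic length of Dll1, 10.4% of that of Notch1, 6.03% of that of Notch3, 5.56% of that of Dll4 and 5.02% of that of Notch2. The gene over Notch2 lies on the same strand as Notch2, and those over Dll1, Notch1, Notch3 and Dll4 lie on the opposite strand. No other gene overlapped the exons of Notch4, Jag1, Jag2, Hes1 or Hey1.

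The genes whose levels across the 8 libraries were most like those of the most abundant receptor, ligand and target were also listed, where the mean log2 CPM was 3 or more. For Notch1 they were Glis3, Arid1a and Mbd4, with a Pearson r of 0.979, 0.972 and 0.957. For Jag2 they were Snx14 (0.982), Sh3glb2 (0.981) and Bud23 (0.978), and for Hes1 they were Ctbp2 (0.987), Ccdc136 (0.983) and Lrfn1 (0.981). These are the highest values over all such genes in 8 libraries that share plasmid and batch, and are given as a description.

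The rest of the pathway was examined in a list of 64 genes, none of them among the 10. Of these, 61 passed the filter, 18 were higher and 11 lower at an adjusted p under 0.05, and the median log2 fold change was 0.01. Over all tested genes 21.1% were higher and 15.5% lower. These shares are also the background for the counts by role that follow, each of which rests on few genes. With scaling factors from abundant genes alone, 23 were higher and 6 lower. A log2 change of at least 0.5 in size was seen for 11 of the called genes, all of them higher, which is near the background, since 2204 of the 2317 genes called at this size over the whole table (95.1%) were higher.

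The group of Hes and Hey relatives and other genes listed as targets held 7 of these 11. The response of the 12 genes of this group to Notch was not tested here. Of these 12 genes 8 were higher and none was lower, with a median log2 fold change of 0.61. Over all tested genes 21.1% were higher and 15.5% lower. Hes2, Hes3, Hes6 and Nrarp were not called. Heyl, a further member of the Hey family, had 0, 0, 0 and 1 counts in control and 37, 30, 52 and 59 counts in Klf4-transfected libraries, a ratio of 170.1 with an exact 95% interval from 30.1 to 6757 that covers counting error only (edgeR adjusted p = 1.47e-09). Gata3, a zinc-finger factor of T cells and epithelia that Notch is known to regulate in T cells, had 0, 3, 1 and 2 against 69, 71, 87 and 110 counts (log2 rise 5.63, SE 0.39, edgeR adjusted p = 5.41e-11). The cyclin gene Ccnd1 had 7, 6, 4 and 3 against 42, 20, 17 and 19 counts (log2 rise 2.20, SE 0.40, edgeR adjusted p = 0.000115), and exons of another gene cover 23.4% of its exonic length. Heyl and Gata3 were thus near 0 in control cells. Heyl, Gata3 and Ccnd1 passed the filter on low counts only through the Klf4-transfected libraries, so they were tested only because they were high there. The other 5 higher genes were Hey2, Hes5, Hes7, Myc and Id1.

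Among 5 genes for receptor glycosylation 2 were higher and 1 lower. The Fringe enzymes add a sugar to the Notch receptors and alter which ligands they answer to. Lfng averaged 17.6 ± 0.802 and 26.1 ± 0.591 CPM in the respective groups (SD, n = 4), a log2 rise of 0.57 with an SE of 0.05 (edgeR adjusted p = 2.75e-09), and Mfng rose from 30.8 ± 2.36 to 37.8 ± 2.81 CPM (log2 fold change 0.30, edgeR adjusted p = 1.25e-05). Pofut1, the enzyme that adds the fucose on which Fringe acts, fell from 30.2 ± 1.5 to 26.8 ± 0.685 CPM (log2 fold change -0.17, edgeR adjusted p = 0.00423). The other 2 of the 5 glycosylation genes were not called.

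Among other and atypical ligands 1 of 4 was called: Dlk2, a transmembrane relative of the Delta ligands, averaged 0.515 ± 0.167 and 3.54 ± 0.816 CPM (SD, n = 4), a log2 rise of 2.77 with an SE of 0.17 (edgeR adjusted p = 4.48e-12). Of 10 genes for turnover and inhibition, 4 were higher and 2 lower. Dtx1, an E3 ubiquitin ligase that binds the Notch intracellular part, was at 5.31, 5.28, 5.82 and 6.01 CPM in control and at 13.6, 13.9, 16.8 and 18.4 CPM in Klf4-transfected libraries (log2 rise 1.48, SE 0.07, edgeR adjusted p = 5.62e-14). The ubiquitin ligase genes Nedd4l (log2 fold change 0.28) and Dtx2 (0.25) rose less.

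For the machinery that cuts the receptor and carries its signal, called changes were small. Of 10 cleavage genes 1 was called, the γ-secretase subunit gene Aph1a (log2 fold change 0.24, edgeR adjusted p = 0.00054), and exons of another gene cover 12.9% of its exonic length. Rbpj, the DNA-binding partner of Notch, averaged 32.1 ± 0.97 CPM without and 32.1 ± 0.728 CPM with the Klf4 plasmid (SD, n = 4), and its log2 fold change of -0.0023 (SE 0.04) was not called (edgeR adjusted p = 0.974). Of 7 genes of the nuclear complex 4 were lower: Maml1, a Mastermind coactivator, by the most (log2 fold change -0.29, edgeR adjusted p = 6.62e-05), Ep300 (-0.13), Maml3 (-0.11) and Snw1 (-0.10), of whose exonic length another gene covers 44.3%. Ep300, Maml3 and Snw1 lost the call with scaling factors from abundant genes alone, with adjusted p of 0.0821, 0.176 and 0.121 in edgeR.

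Of 6 corepressor genes 2 were lower, Spen (-0.28 on the log2 scale, SE 0.03, edgeR adjusted p = 8.28e-07) and Ctbp1 (-0.08), and the latter lost the call under the same scaling. Of 4 genes for ligand endocytosis Neurl1a was higher (log2 fold change 0.16) and Mib1 lower (-0.10), and both lost the call after the correction for GC content and length. None of the 29 calls of this list changed sign under the scalings tried, and 7 lost the call under at least 1 of them.

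**Figure D4:**
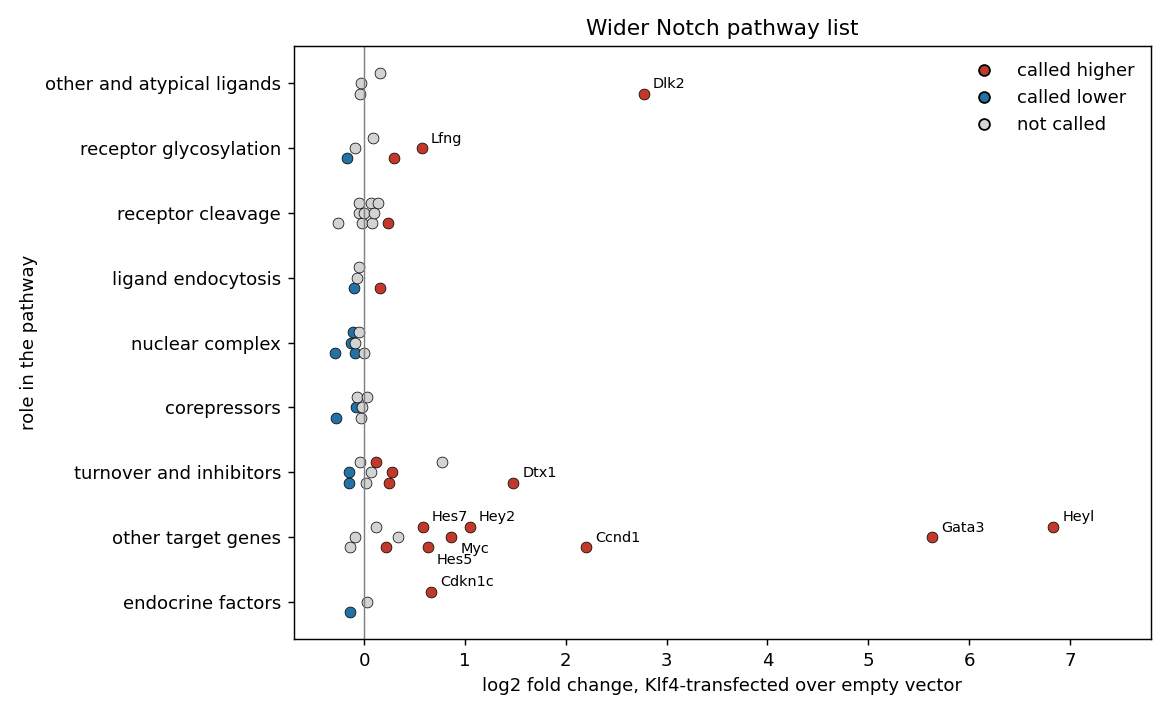
Log2 fold change (horizontal axis) of the 61 tested genes of the wider pathway list by role (vertical axis, points spread within a role so that they can be seen), coloured by call. Called genes beyond 0.5 in size are named; they lie to the right of 0, as do 95.1% of all tested genes called at this size, and Heyl at 6.83 rests on 1 count in control cells.

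Among the genes that Notch restrains or maintains in the pancreas, Neurog3 and the progenitor factor Sox9 fell below the filter. Neurog3 had no counts in control and 3, 0, 1 and 0 counts in Klf4-transfected libraries. Sox9 had 1, 0, 0 and 0 counts in control and 6, 8, 10 and 18 in Klf4-transfected libraries. Neurod1, an endocrine factor downstream of Neurog3, was lower (log2 fold change -0.14, edgeR adjusted p = 0.00337), with exons of another gene over 13.0% of its exonic length, and the cell-cycle inhibitor gene Cdkn1c was higher (0.66, edgeR adjusted p = 1.63e-05), with exons of another gene over 30.7% of its exonic length.

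Since Notch4, Dll4 and Notch3 are best known from vessels, markers of other cell types were set beside them. Of 8 endothelial markers, 5 were tested and 2, Cdh5 and Tie1, were higher, where 21.1% of all tested genes were higher. Cdh5 had no counts in control and 14, 28, 19 and 19 counts in Klf4-transfected libraries, and Tie1 had 0, 0, 3 and 2 against 69, 61, 47 and 66. Kdr, Emcn and Cldn5 had at most 3 counts in any library, and the summed level of the 8 was 19.2 to 23.9 CPM without and 23.0 to 25.4 CPM with the Klf4 plasmid. Most of this sum was Esam and Pecam1, which were not called.

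Of 6 mesenchymal markers, 4 were tested and 3, Dcn, Col1a1 and Pdgfra, were higher. Their summed level went from 2.65 to 3.92 CPM in control to 21.1 to 27.5 CPM in Klf4-transfected libraries, with Dcn at 17.6 ± 3.82 CPM (SD, n = 4) as the main part, while Col3a1 had at most 3 counts in any library. Of 6 duct markers, 3 of the 4 tested were higher, with a summed level of 56.1 to 87.5 CPM without and 72.3 to 111 CPM with the Klf4 plasmid. The share of higher genes over all tested genes, 21.1%, is the background for these counts too. Cdh5, Tie1, Dcn and Pdgfra, with 0 to 5 counts per control library, passed the filter on low counts only through the Klf4-transfected libraries. So did the duct marker Krt19, with 9, 7, 16 and 14 counts in control replicates 1 to 4. The part of the marker genes in the changes of the Notch genes was not tested.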

How the data were processed

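Whole-number read counts per gene, 1 column per library, were used as the authors deposited them. Per the submitters' processing notes the tools were FastQC, STAR, featureCounts and edgeR with build mm10; versions, annotation and strand setting are not given in the sources used here. The extraction protocol mentions islets, whereas titles and cell labels give MIN6. All 55536 pairs of identifier and symbol were those of GENCODE M21 (GRCm38), the source of coordinates and exonic lengths.

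Genes were kept with filterByExpr (minimum count 10; 37270 genes taken out), scaled with TMM factors and tested in edgeR 4.0.16 (quasi-likelihood, terms for batch and plasmid, R 4.3.3), since the series states edgeR with correction for batch. SE is the log2 fold change over the root of F. P-values were adjusted by Benjamini-Hochberg over 18266 genes, with calls at 0.05. No label says that replicates came from separate cultures, so p-values measure the spread between these samples. Libraries of a group differed beyond sampling noise (chi-square per degree of freedom 4.23 to 23.3).

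Same-numbered libraries deviated together (r 0.48 to 0.64 over 10485 genes), as did other libraries of the same batch (0.49 to 0.59), so the numbers paired libraries by batch. Alternatives were a replicate block, no batch term, DESeq2 1.42.0, limma-voom (limma 3.58.1), other scalings and filters, stricter thresholds, an offset for GC content and length (loess span 0.3), each batch alone and the omission of each library.

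The 10 genes, the lists and the naming rule (all 10 genes, and up to 3 called genes of largest change in each role of the pathway list, others by count) were chosen with earlier results of these data known. Rbpj, Snw1, Kdr, Emcn and other genes outside that rule were named after their values were seen. A gene of the pathway list that was below the filter is not reported here. On simulated data with 18266 genes and the same design, 88% of genes raised by 1 on the log2 scale were called, 78% of those raised by 0.5 and 74.5% of those lowered by 1. Each share rests on 47 to 50 genes. Far fewer genes were changed there than were called in these data, so the shares do not give the sensitivity of the main test.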

Additional observations from a re-analysis of the deposited data

Results flagged for a closer look

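In 24 groups of 4 values each, 3 held an extreme value with a wide gap to the rest (Dixon's criterion at 95%), where chance gives about 1.2. Klf4-transfected replicate 1 had 123 CPM of Notch1, while replicates 2 to 4 had 129.3 to 130.2 CPM, and without it the log2 fold change of Notch1 was -0.05 in place of -0.07. Control replicate 4 had 4.87 CPM of Notch2, while control replicates 1 to 3 had 5.51 to 5.54 CPM. Without it the log2 fold change of Notch2 was 0.80 in place of 0.87. The library of Klf4-transfected replicate 2 summed to 45417853 counts, against 51891997 to 52731176 in the other Klf4-transfected libraries, and without it 7 Notch genes were called. The effect of the plasmid on Klf4 itself differed between batches, by 0.37 on the log2 scale in batch 2 over batch 1 (edgeR interaction test, adjusted p = 0.0057).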

How the results depend on the processing

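Between 5 and 8 of the 10 Notch genes were called over 23 alternatives, 5 of them with a minimum absolute log2 fold change of 0.5. Notch2, Notch4, Dll4, Jag1 and Hes1 kept direction and call under all 21 alternatives for single genes, and Notch3 under the 20 that tested it. Jag1 ranged from 3.14 to 3.69, Notch4 from 2.43 to 2.71, Notch3 from 1.32 to 1.63, Dll4 from 1.07 to 1.37, Notch2 from 0.76 to 0.99 and Hes1 from 0.34 to 0.54. Jag2 turned to -0.0145 with the offset for GC content and length, with and without the replicate block, and Notch1 to 0.00053 in batch 2 alone; the cause was not tested. Without a batch term 4116 genes and 17 of the pathway list were called, against 6684 and 29, and with the minimum fold 2317 and 11, where the criterion itself is stricter. Leaving out a library gave 5889 to 7074 called genes, 7 to 8 Notch genes, 25 to 30 genes of the pathway list, 48 to 261 genes that differed between batches in the effect (140 with all libraries; 78 without control replicate 3, 77 without control replicate 4, 82 without Klf4-transfected replicate 1, 48 without Klf4-transfected replicate 2 and 261 without control replicate 1), and 3611 to 4111 that differed in level. With the replicate block 6284 genes were called, 7 of them Notch genes, and the call of Maml3 was lost (edgeR adjusted p = 0.0505). Scaling factors from abundant genes moved the share of higher calls among all genes from 57.7% to 72.7%. Depth limits Notch3 most, at 11 to 19 counts per control library.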
